A study of Mus musculus with 12 samples.

Results

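The comparison described here is that of colon with ileum in Slc39a8-IEC KO mice, that is, 3 colonic and 3 ileal mucosa libraries out of the 12 RNA-seq libraries of the study. The members are these 6 libraries, chosen by the tissue and genotype of their labels and not by any measured value, and 16558 genes were tested between them. All mice were 8-week-old males of the strain C57BL/6J. The KO mice carried floxed Slc39a8 alleles together with Villin-Cre, whose promoter is active in intestinal epithelial cells, so the muscle, stromal and immune cells of the mucosa kept the gene. The 6 libraries of control mice were used only to share the estimate of spread and to set the same tissue comparison beside that in KO mice. Their label names the floxed Slc39a8 genotype, while by the methods some control animals were wild-type or carried Villin-Cre alone. Each group held 3 mice, and whether one mouse gave both its ileum and its colon is not stated. Library depth was 16749138 to 27903083 expected counts over the 12 libraries.

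The ileum is the last segment of the small intestine. Its enterocytes take up bile acids, vitamin B12 and what is left of dietary fat, sugar and peptides through a tall brush border, and its crypts hold Paneth cells, which secrete antimicrobial peptides. The colon has no villi and normally no Paneth cells. Colonic epithelium takes up sodium, chloride and water, burns butyrate made by bacteria, and is covered by a thick layer of mucus. Regional identity is laid down in the embryo by transcription factors of the Hox, Gata and Cdx families, which stay expressed in the adult gut.

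Expression is given in CPM (counts relative to the TMM-scaled library total), always in the order of replicates 1, 2 and 3. These levels are not divided by gene length and are compared only between libraries, not between genes. A log2 fold change is that of colon over ileum in KO mice, so a positive value means more in colon, and ± is its standard error in the edgeR fit. A gene was called different at an adjusted p under 0.1 in edgeR's quasi-likelihood test with Benjamini-Hochberg adjustment over all tested genes. In bulk mucosa, fewer cells of a type and less RNA of a gene per cell cannot be told apart.

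All 6 libraries separated by their labelled tissue, but 2 of the ileal KO libraries stood apart. In ileum KO replicate 1 the summed level of 12 smooth muscle genes was 196 CPM, against 2780 and 3105 CPM in replicates 2 and 3 and 3450 to 4514 CPM in the colon libraries. For Myh11, the heavy chain of smooth muscle myosin, the ileal values were 3.34, 502 and 604 CPM. This library also held more B cell RNA, with a summed level over 9 B cell and follicle genes of 73.2 CPM against 7.11 and 9.85 CPM. It differed by more than 2-fold from replicates 2 and 3 in 3233 and 3450 genes, while replicates 2 and 3 differed from each other in 836. None of the 12 smooth muscle genes was called between the tissues, against 37.1% of all tested genes. When this library and the 1 control ileal library with as few muscle transcripts were left out, 5 were called higher in colon. The part of muscle in other results was not tested.

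Ileum KO replicate 2 contained transcripts that are otherwise found in colon. Measured with 15 genes that in control mice reached 10 CPM in every colon library and at least 50 times the highest ileal one, the median level in ileum KO replicate 2 was 5.40% of the mean of the KO colon. In replicates 1 and 3 that median was 0.167% and 0.586%, and in the 3 control ileal libraries it was 0.195% to 0.728%. The control ileal libraries were kept low by the rule that chose the genes, so only KO replicates 1 and 3 are a free comparison. One of the 15 genes, Lpo, was at 0 counts in all 3 KO ileal libraries, including replicate 2. In the opposite direction, 57 genes restricted to ileum by the same rule had medians of 0.0889%, 0.0528% and 0.101% of the ileal mean in the 3 KO colon libraries. This rule was chosen after seeing the data, and the stricter one planned first (at most 0.1 CPM in the other tissue) left 3 colon and 8 ileum genes, of which 2 and 8 were called in the same direction in KO mice.

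**Figure D1:**
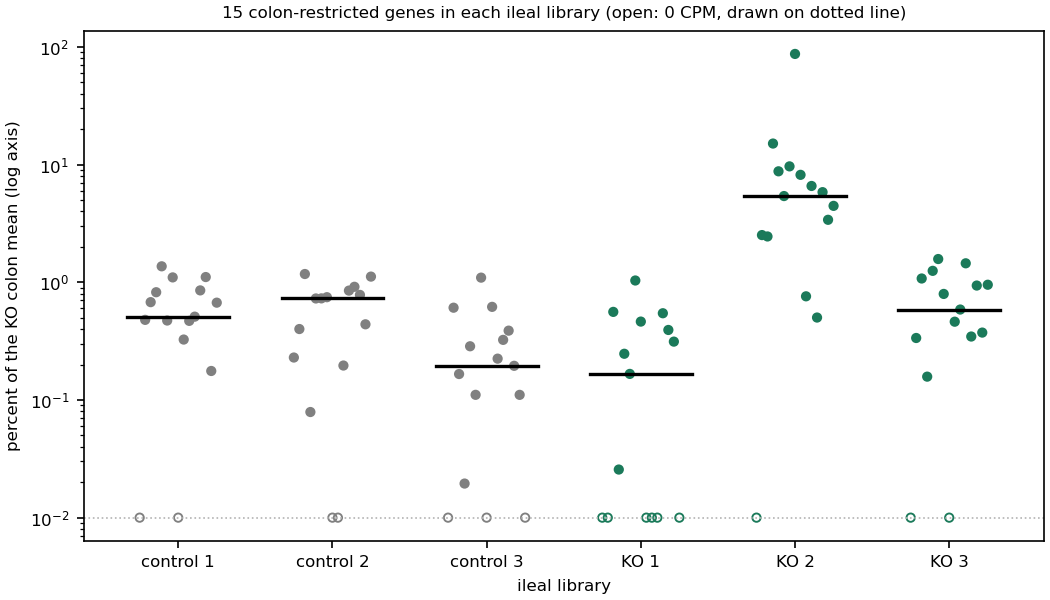
Each point is 1 of 15 genes restricted to colon in control mice, plotted on a log axis as its level in 1 ileal library in percent of its mean over the 3 KO colon libraries, with the median as a black bar. Control libraries are grey, KO libraries green, open points are genes at 0 CPM, and KO replicate 2 has a median of 5.40%. KO replicates 1 and 3 have medians of 0.167% and 0.586%, and the control libraries were kept low by the rule that chose the genes.

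For carbonic anhydrase 1, one of these genes, the call in edgeR turned on ileum KO replicate 2. Car1 (chr3:14766216-14808368, minus strand, GRCm38) was at 14884, 20993 and 16457 CPM in colon and 4.47, 2632 and 27.5 CPM in ileum. All colon values lay above all ileal values, yet the spread within ileum left the gene uncalled (log2 fold change 4.30 ± 1.85, edgeR adjusted p = 0.11). Without ileum KO replicate 2 the log2 fold change was 10.08 with an edgeR adjusted p of 0.0029, and with all libraries the gene was called by limma-voom (7.94, adjusted p = 0.015) and DESeq2 (4.31, adjusted p = 0.0029). Aqp8, a water channel of colonic surface cells, was at 0.358, 67.3 and 0 CPM in ileum and 27.9, 36.6 and 167 CPM in colon, with overlapping ranges. It was uncalled (log2 fold change 1.76 ± 1.62, edgeR adjusted p = 0.45) and reached 8.85 (edgeR adjusted p = 0.0072) without ileum KO replicate 2.

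Slc39a8 itself, the targeted gene and a transporter that carries manganese, zinc and iron into cells, was detected in every library. The gene lies on chr3:135825279-135888572 (plus strand, GRCm38). It was at 4.35, 2.62 and 2.79 CPM in KO ileum and 8.39, 5.22 and 6.59 CPM in control ileum. In colon it was at 7.35, 11.5 and 7.93 CPM in KO mice and 20.8, 20.5 and 20.1 CPM in control mice. Every KO library thus lay below every control library of its tissue. Some transcript remained in KO mucosa, and within KO mice every colon library lay above every ileal library (log2 fold change 1.46 ± 0.26, edgeR adjusted p = 0.0015). An exact two-sided permutation test of 3 against 3 libraries gave p = 0.1, the smallest value that design allows. The colon-to-ileum difference was 1.6 in control mice, and the difference between the genotypes was -0.14, with an approximate 95% interval of -0.85 to 0.56. Such intervals were taken from the normal distribution and are somewhat too narrow for 3 libraries per group.

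Across all genes, 6149 of 16558, or 37.1%, were called between colon and ileum in KO mice. Of these, 2837 (17.1% of tested genes) were higher in colon and 3312 (20%) were higher in ileum. At least a 2-fold change was fitted for 3389 genes (20.5%), with 1717 higher in colon and 1672 in ileum, and at least a 16-fold change for 148 genes higher in colon and 232 higher in ileum. In 8341 genes (50.4%) the 3 colon values and the 3 ileal values did not overlap, with colon above ileum in 25.5% of tested genes and below it in 24.9%. The first principal component of all 12 libraries held 63.1% of the variance and separated the tissues. The median log2 fold change of all tested genes was 0.01. It moved to 0.14 with upper-quartile factors and to 0.29 with library size as the only scaling, and the share of calls that were higher in colon moved with it, from 46.1% to 58.3% and 70.8%. Fold changes of that size are therefore relative to the scaling.

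By the fitted log2 fold change among called genes that reached 10 CPM, the 8 leading colon-higher genes were Lpo, Nxpe2, Grin3a, Ccn3, Akr1c18, Sstr1, Cbr3 and Foxd2, where the fitted value of Lpo depends on the prior count. Lpo (chr11:87806428-87828289, minus strand, GRCm38), which encodes lactoperoxidase, a secreted antibacterial enzyme, was at 23.6, 23.5 and 26.2 CPM in colon and 0, 0 and 0 CPM in ileum. With 0 counts in all ileal libraries it was at least 557-fold higher in colon, taking 3 counts over the group as the floor. Nxpe2, a gene of the neurexophilin and PC-esterase family, was at 48.6, 57.0 and 43.1 CPM in colon and 0.179, 0.274 and 0.0947 CPM in ileum (log2 fold change 8.0 ± 0.61, edgeR adjusted p = 3.3e-06). The somatostatin receptor Sstr1 was at 41.1, 34.9 and 34.8 CPM in colon and 0.775, 0.274 and 0.521 CPM in ileum (log2 fold change 6.18 ± 0.35, edgeR adjusted p = 4.6e-07). None of these ranges overlapped. The glutamate receptor subunit Grin3a (7.72 ± 0.38), the matricellular protein Ccn3 (7.65 ± 0.50), the reductases Akr1c18 (6.47 ± 0.66) and Cbr3 (6.14 ± 0.55) and the forkhead factor Foxd2 (6.06 ± 0.59) were higher in colon as well. Without ileum KO replicate 2 Akr1c18 and Foxd2 were at 8.75 and 8.10. For Akr1c18 the other ileal libraries held 0 and 1 counts, so its value of 8.75 depends on the prior count.

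The ileum-higher genes named by the same rule were Defa33, Mptx2, Defa32, Gm7861, Defa21, Defa17, Defa3 and Slc5a12, all with so few colon counts that their fitted values depend on the prior count and give them no order. The Defa genes encode alpha-defensins, antimicrobial peptides of Paneth cells. They are near-identical copies, among which reads can be split wrongly, so their single values are uncertain. Mptx2 (chr1:173274382-173277777, minus strand, GRCm38), a pentraxin made by Paneth cells, was at 60.9, 124 and 159 CPM in ileum and 0, 0 and 0 CPM in colon, at least 2176-fold higher in ileum. Slc5a12, a sodium-coupled carrier of lactate and other monocarboxylates, was at 48.5, 43.6 and 23.4 CPM in ileum and 0, 0 and 0 CPM in colon, at least 732-fold higher in ileum. Defa33 was at 1544, 1235 and 941 CPM in ileum and 0, 0.147 and 0 CPM in colon, a total of 3 counts in colon. Each of these genes was absent or nearly absent from all 3 colon libraries.

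**Figure D2:**
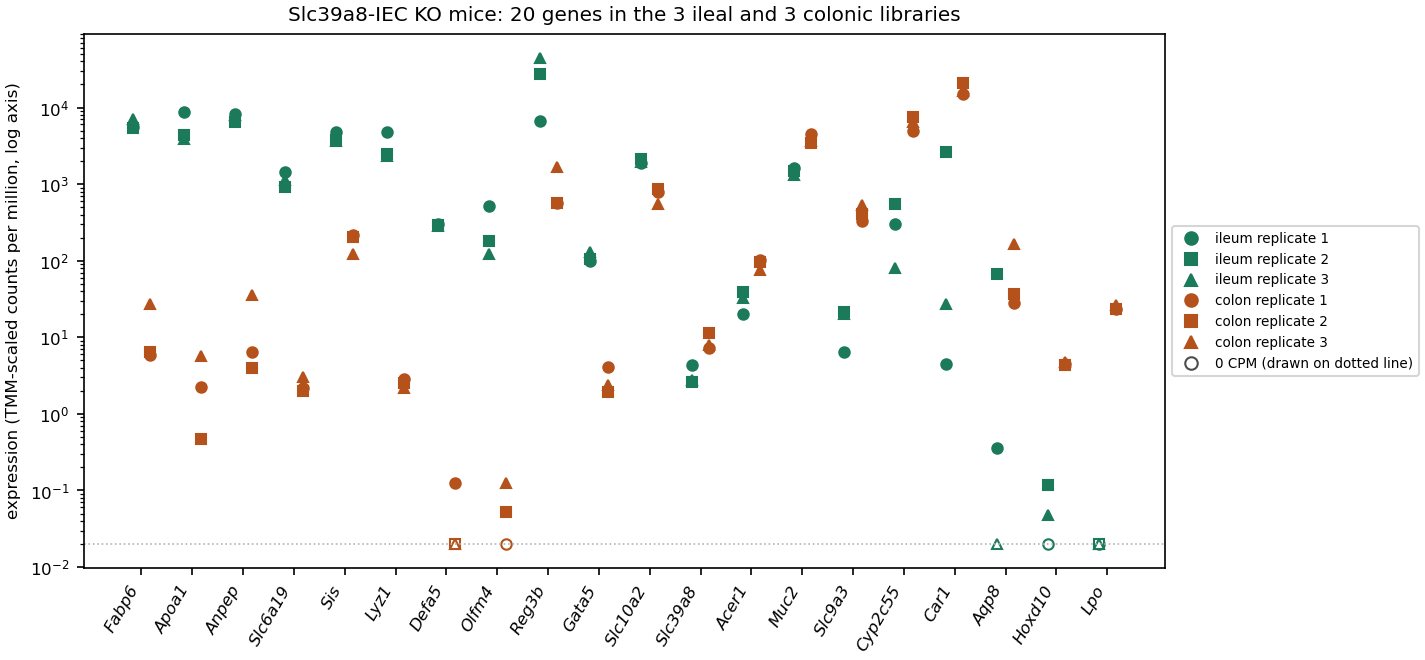
Expression of 20 genes in each Slc39a8-IEC KO library, in TMM-scaled CPM on a log axis, with ileal libraries in green, colonic libraries in orange and the replicate number as the marker shape. Values of 0 are open symbols on the dotted line, genes run from ileum-higher on the left to colon-higher on the right, and ileum replicate 2 (green square) stands out for Car1 at 2632 and Aqp8 at 67.3.

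Among regulators of position, the Hox genes, which pattern the body along its length, were mostly higher in colon. Of 39 Hox genes in the list 28 had enough counts to be tested, 20 were higher in colon, 4 were higher in ileum, and the median log2 fold change was 2.01. Hoxa11 was at 4.10, 5.18 and 9.82 CPM in colon and 0, 0 and 0 CPM in ileum, at least 145-fold higher in colon. Hoxd11 was at 3.08, 2.14 and 2.86 CPM in colon and 0, 0 and 0 CPM in ileum, at least 61-fold higher. Hoxd10 was at 4.43, 4.4 and 4.69 CPM in colon and 0, 0.117 and 0.0474 CPM in ileum (log2 fold change 6.07 ± 0.74, edgeR adjusted p = 1.1e-04). The tested 5′ genes of both clusters were thus at or near 0 in ileum and present in every colon library. Hoxa13 was at 0.565, 0.622 and 7.06 CPM in colon, so that colon KO replicate 3 alone was well above 1 CPM, and the same library was highest for Hoxa9 (2.45, 2.33 and 14.4 CPM) and Hoxa7 (2.89, 4.78 and 15.6 CPM). Without it Hoxa7 was no longer called (1.87, edgeR adjusted p = 0.17) and Hoxa9 fell to 2.5.

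The Hoxb genes were expressed in both tissues and differed by little. Hoxb9 was at 70.7, 68.0 and 60.4 CPM in colon and 42.4, 44.6 and 39.3 CPM in ileum (log2 fold change 0.66 ± 0.13, edgeR adjusted p = 0.0036), and Hoxb4 was at 16.9, 19.8 and 12.9 CPM in colon and 8.11, 7.89 and 6.92 CPM in ileum (log2 fold change 1.11 ± 0.22, edgeR adjusted p = 0.0029). Of 8 tested Hoxb genes 6 were called, all higher in colon. The Hoxc cluster went the other way, with 4 of 5 tested genes called higher in ileum. Hoxc8 was at 0.298, 4.03 and 4.74 CPM in ileum and 0, 0.104 and 0.125 CPM in colon (log2 fold change -5.20 ± 1.27, edgeR adjusted p = 0.01), without overlap, and was not called in limma-voom (-4.77, adjusted p = 0.14). Hoxc5, Hoxc6 and Hoxc9 had values of at most 4.17 CPM, overlapped between the tissues, and lost their calls when most single KO libraries were left out. In all 4 of these Hoxc genes ileum KO replicate 1, the library with few muscle transcripts, was the lowest of the ileal libraries, and the part of muscle in this pattern was not tested.

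**Figure D3:**
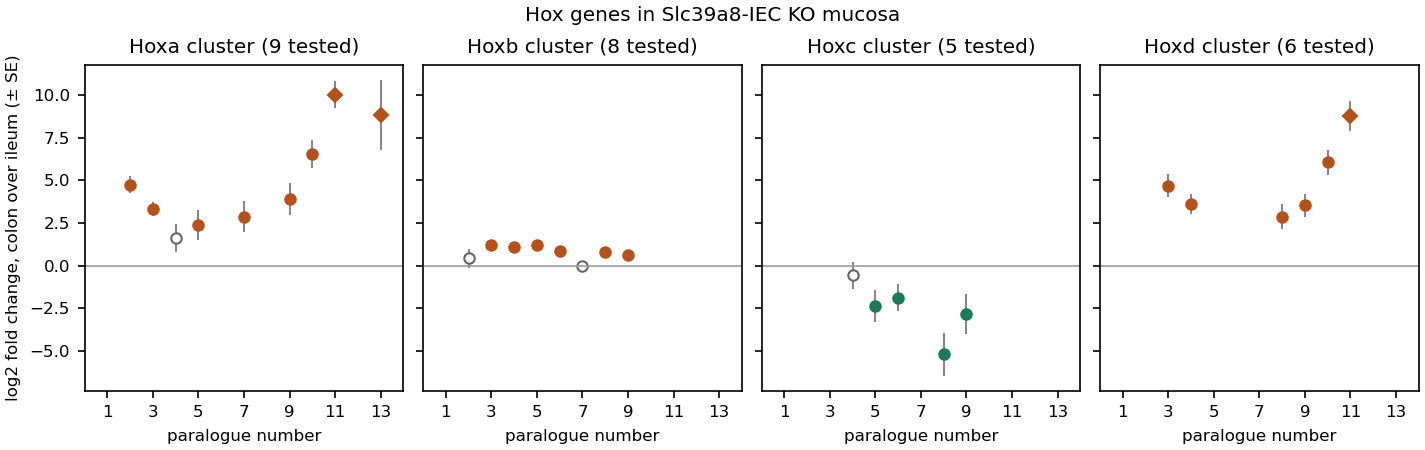
The log2 fold change of each tested Hox gene, colon over ileum in Slc39a8-IEC KO mice, with its standard error, against the paralogue number in the 4 clusters. Filled points have an adjusted p under 0.1 (orange higher in colon, green higher in ileum), open points do not, and diamonds mark Hoxa11, Hoxa13 and Hoxd11, which had 0 counts in ileum, so that their fitted value depends on the prior count. Hoxa and Hoxd genes lie above 0, Hoxb genes close to it and Hoxc genes below it.

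Transcription factors of the epithelium were split. Of 23 tested, 8 were higher in ileum and 6 in colon, against 20% and 17.1% of all tested genes. Gata5, a zinc-finger factor of the small intestine, was at 97.7, 104 and 132 CPM in ileum and 4.10, 1.92 and 2.37 CPM in colon (log2 fold change -5.31 ± 0.32, edgeR adjusted p = 5.7e-07). Maf, a basic leucine zipper factor of absorptive enterocytes, was at 374, 498 and 495 CPM in ileum and 19.5, 26.4 and 28 CPM in colon (log2 fold change -4.21 ± 0.29, edgeR adjusted p = 1.4e-06). Hnf4g, a nuclear receptor of enterocytes, was at 218, 297 and 225 CPM in ileum and 21.6, 26.1 and 22.6 CPM in colon (log2 fold change -3.40 ± 0.29, edgeR adjusted p = 8.6e-06). All 3 were separated by a wide gap. Its relative Hnf4a differed less (-0.81 ± 0.17), as did Gata6 (-1.05 ± 0.11). Creb3l3, a regulator of lipid genes, was also higher in ileum (-2.68 ± 0.25).

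On the colonic side, Tfcp2l1, a factor of transporting epithelia, was at 378, 409.9 and 336 CPM in colon and 114, 132 and 90.2 CPM in ileum (log2 fold change 1.74 ± 0.22, edgeR adjusted p = 1.5e-04). Foxa1, a forkhead factor of gut epithelium, was at 63.8, 64.2 and 62.9 CPM in colon and 32.8, 26.7 and 24.0 CPM in ileum (log2 fold change 1.19 ± 0.14, edgeR adjusted p = 1.0e-04), and the chromatin organiser Satb1 was at 7.87, 8.18 and 7.55 CPM in colon and 1.37, 2.31 and 2.13 CPM in ileum (log2 fold change 2.01 ± 0.40, edgeR adjusted p = 0.0029). All 3 were higher in every colon library, and none was absent from ileum. Gata4, which in the small intestine is strongest further up, was low in both tissues at 1.79, 1.45 and 1.99 CPM in ileum and 0.188, 0.518 and 2.82 CPM in colon and uncalled, but was called higher in ileum (-2.29, edgeR adjusted p = 0.073) without colon KO replicate 3. Klf4 (0.14, edgeR adjusted p = 0.6), a factor of mature epithelium, did not pass the test.

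The 250 bases before the start of 4 genes named in this comparison are given to show what matches to motifs of the factor families above look like in genes of both directions. The 4 were chosen after their values were seen. They come from RefSeq (GRCm38.p6), read 5′ to 3′ on the strand of the gene, and capitals mark every match, on either strand, to the HNF4 motif CAAAGTNCA, the GATA motif AGATAA, the CDX and HOX motif TTTATG or the TATA motif TATAAA.
Apoa4 (higher in ileum, chr9:46240594-46240843, plus strand): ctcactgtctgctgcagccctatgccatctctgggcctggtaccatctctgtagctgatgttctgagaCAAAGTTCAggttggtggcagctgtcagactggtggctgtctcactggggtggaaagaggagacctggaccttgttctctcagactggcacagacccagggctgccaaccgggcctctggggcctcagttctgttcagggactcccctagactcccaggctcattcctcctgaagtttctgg
Sis (higher in ileum, chr3:72967864-72968113, minus strand): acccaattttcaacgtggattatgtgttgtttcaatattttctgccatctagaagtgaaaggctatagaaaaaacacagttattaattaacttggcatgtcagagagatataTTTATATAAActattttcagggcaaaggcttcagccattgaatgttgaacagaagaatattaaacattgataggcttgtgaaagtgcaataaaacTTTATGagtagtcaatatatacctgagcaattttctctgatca
Cyp2c55 (higher in colon, chr19:39006769-39007018, plus strand): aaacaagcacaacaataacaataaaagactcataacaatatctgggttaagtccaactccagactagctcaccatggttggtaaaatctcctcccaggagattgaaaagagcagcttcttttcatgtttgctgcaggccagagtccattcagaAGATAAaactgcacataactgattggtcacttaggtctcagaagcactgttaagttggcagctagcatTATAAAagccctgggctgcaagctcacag
Lpo (higher in colon, chr11:87826115-87826364, minus strand): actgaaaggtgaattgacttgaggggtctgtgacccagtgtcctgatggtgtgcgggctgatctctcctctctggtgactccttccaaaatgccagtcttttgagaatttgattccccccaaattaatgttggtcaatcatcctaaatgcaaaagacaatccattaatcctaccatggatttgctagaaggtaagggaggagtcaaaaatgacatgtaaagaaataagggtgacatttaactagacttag

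The HNF4 match of Apoa4 begins 182 bases before the start. Sis holds the CDX and HOX motif at 43 bases and overlapping TATA matches of both strands at 138 and 134 bases. Cyp2c55 holds a GATA match at 97 bases and a TATA match at 29 bases. Lpo holds no match in this window. For Lpo the window follows the RefSeq start and lies inside the gene interval given above (chr11:87806428-87828289), not before it. The HNF4 motif was found in 1.19% of all 32851 promoters of this length and in 1.05% of the 15079 promoters of tested genes. Among 179 promoters of genes at least 16-fold higher in ileum (155 of 232 genes matched) the share was 3.91%, or 7 promoters. Among 127 promoters of genes at least 16-fold higher in colon (101 of 148 genes matched) it was 0.79%, or 1 promoter. Differences between these shares were not tested. For the GATA motif the shares were 9.99% of all promoters, 6.39% of those of tested genes, 14.53% for ileum and 10.24% for colon. In the same order they were 10.76%, 6.48%, 13.97% and 11.02% for TTTATG and 12.37%, 7.15%, 20.67% and 14.96% for TATAAA. A match is a description of the letters and was not tested as a binding site.

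Bile acid handling was ileal. Of 8 tested genes of the list 6 were higher in ileum, 1 was higher in colon, and the median log2 fold change was -2.51, beside 0.01 over all genes. Fabp6 (chr11:43596049-43601540, minus strand, GRCm38), the bile acid binding protein of the enterocyte, was at 5514, 5467 and 7109.7 CPM in ileum and 5.89, 6.37 and 26.8 CPM in colon (log2 fold change -8.85 ± 0.66, edgeR adjusted p = 2.5e-06). Slc10a2, the apical carrier that brings bile acids into the cell, was at 1884, 2137 and 1955 CPM in ileum and 783, 875 and 547 CPM in colon (log2 fold change -1.44 ± 0.23, edgeR adjusted p = 7.7e-04). The ileal values lay above the colonic ones in both genes, but for Slc10a2 the colon kept at least 547 CPM. The 2 subunits of the basolateral bile acid exporter were higher in ileum, Slc51a (-2.58 ± 0.17) and Slc51b (-2.43 ± 0.32), and so was the apical export pump Abcc2 (-3.51 ± 0.39).

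Fgf15, the hormone by which ileal bile acids signal to the liver, was low, at 3.87, 5.70 and 5.30 CPM in ileum and 0, 0.0518 and 0.291 CPM in colon (log2 fold change -5.30 ± 0.70, edgeR adjusted p = 4.6e-04). Abcc3, a basolateral pump for conjugated bile acids, was the exception that was higher in colon, at 414, 346 and 323 CPM in colon and 49.0, 81.0 and 116 CPM in ileum (log2 fold change 2.14 ± 0.32, edgeR adjusted p = 4.9e-04). Their receptor Nr1h4 was at 175, 347 and 307 CPM in ileum and 186, 215 and 194 CPM in colon, with overlapping ranges, and did not pass the test (log2 fold change -0.48 ± 0.32, edgeR adjusted p = 0.29).

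Fat absorption showed larger differences. Of 18 tested genes for lipid uptake and chylomicron assembly, 15 were higher in ileum and 1 was higher in colon, with a median of -4.14. Apoa1, a lipoprotein carried on chylomicrons, was at 8787, 4338 and 3896 CPM in ileum and 2.26, 0.466 and 5.64 CPM in colon (log2 fold change -10.97 ± 0.88, edgeR adjusted p = 4.9e-06). Mttp, which loads lipid onto apolipoprotein B, was at 755, 765 and 1119.5 CPM in ileum and 2.83, 2.59 and 8.92 CPM in colon (log2 fold change -7.51 ± 0.52, edgeR adjusted p = 1.4e-06). Npc1l1, the carrier of dietary cholesterol, was at 849, 618 and 633 CPM in ileum and 3.67, 1.86 and 4.32 CPM in colon (log2 fold change -7.72 ± 0.36, edgeR adjusted p = 1.9e-07). These genes were nearly absent from colon, and colon KO replicate 3 was the highest of the colon libraries for all 3. Apoa4 (301, 65.5 and 211 CPM in ileum and 0.0655, 0 and 0.913 CPM in colon) had a log2 fold change of -9.09 with that library and -12.61 without it. Without it the colon was at 0.0655 and 0 CPM, so the fitted value of -12.61 depends on the prior count.

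Genes that were present in both tissues differed by less, such as the fatty acid binding protein Fabp2 at 5645, 5379 and 5171 CPM in ileum and 616, 708 and 665 CPM in colon (log2 fold change -3.03 ± 0.30, edgeR adjusted p = 2.3e-05) and Apob (-4.10 ± 0.23). The triglyceride enzymes Mogat2 (-5.01 ± 0.29) and Dgat1 (-3.45 ± 0.20) and the sterol exporters Abcg5 (-4.38 ± 0.30) and Abcg8 (-4.18 ± 0.31) followed the same direction. Scarb1, a lipoprotein receptor that also takes up sterols, was the member higher in colon, at 8.95, 9.84 and 11.5 CPM in colon and 1.25, 2.38 and 1.37 CPM in ileum (log2 fold change 2.58 ± 0.30, edgeR adjusted p = 8.3e-05). The fatty acid translocase Cd36 (0.89, edgeR adjusted p = 0.41) and the lipid droplet protein Plin2 (0.61, edgeR adjusted p = 0.11) did not pass.

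All 11 tested brush border peptidases and all 11 tested genes of sugar digestion and uptake were called higher in ileum, with medians of -5.24 and -3.77. Anpep, aminopeptidase N, was at 8254, 6501 and 7918 CPM in ileum and 6.36, 3.99 and 35.9 CPM in colon (log2 fold change -8.93 ± 0.89, edgeR adjusted p = 2.4e-05). Enpep, aminopeptidase A, was at 3791, 3818 and 3862 CPM in ileum and 55.7, 35.6 and 54.5 CPM in colon (log2 fold change -6.30 ± 0.24, edgeR adjusted p = 4.0e-08). Dpp4, which cuts dipeptides from proline-rich peptides, was at 1451, 1569.5 and 1485 CPM in ileum and 39.2, 38.6 and 44.6 CPM in colon (log2 fold change -5.20 ± 0.20, edgeR adjusted p = 4.0e-08). No colon value came near the ileal range. The neutral endopeptidase Mme (-9.18 ± 0.51) was of the same kind, whereas the metalloprotease subunit Mep1a, which is abundant in both tissues, differed least (-1.34 ± 0.18).

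Sucrase-isomaltase (Sis), which splits sucrose and starch products, was at 4755, 3720.0 and 3667 CPM in ileum and 215, 206 and 123 CPM in colon (log2 fold change -4.48 ± 0.34, edgeR adjusted p = 2.8e-06). Its partner Mgam was higher in ileum in the same way (-3.77 ± 0.20), as were the trehalose enzyme Treh (-7.63 ± 0.40), the sodium-glucose carrier Slc5a1 (-3.17 ± 0.17) and the fructose carrier Slc2a5 (-2.95 ± 0.33). The basolateral glucose carrier Slc2a2 is the weak case. It was at 43.3, 0.703 and 0.332 CPM in ileum and 0.0942, 0 and 0.0415 CPM in colon, so that ileum KO replicate 1 held nearly all of it, and its call (edgeR adjusted p = 0.053) was lost without that library (adjusted p = 0.42) and without any 1 of the colon KO libraries (adjusted p = 0.13 to 0.15).

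Of 13 amino acid and peptide carriers 11 were higher in ileum and none in colon (median -3.85). Slc6a19, the main carrier of neutral amino acids, was at 1436, 916 and 1147 CPM in ileum and 2.17, 2.02 and 3.03 CPM in colon (log2 fold change -8.91 ± 0.28, edgeR adjusted p = 2.4e-08). Slc15a1, the carrier of di- and tripeptides, was at 950.1, 479 and 472 CPM in ileum and 9.61, 15.7 and 12.1 CPM in colon (log2 fold change -5.67 ± 0.45, edgeR adjusted p = 4.5e-06), and Slc7a9, which carries cystine and basic amino acids, was at 427, 463 and 483 CPM in ileum and 18.0, 15 and 23.7 CPM in colon (log2 fold change -4.60 ± 0.23, edgeR adjusted p = 2.1e-07). Ileum lay above colon without overlap in each. The exceptions were Slc6a14, a broad amino acid carrier, at 1884, 1806 and 1343 CPM in colon and 35.4, 648 and 627 CPM in ileum, where every colon library was the higher but the low ileum KO replicate 1 widened the spread (log2 fold change 1.94 ± 0.97, edgeR adjusted p = 0.16), and Slc36a1 (0.43, edgeR adjusted p = 0.17).

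Of 10 tested genes of vitamin and calcium absorption 5 were higher in ileum and 3 in colon, against 20% and 17.1% of all tested genes. In this list 4 others were too low to test. Cubn and Amn, the 2 parts of the receptor for vitamin B12 bound to intrinsic factor, were at 1079, 506 and 420.1 CPM in ileum and 46.3, 45.1 and 29.5 CPM in colon (log2 fold change -4.05 ± 0.49, edgeR adjusted p = 1.0e-04) and at 209.7, 136 and 144 CPM in ileum and 29.1, 20.1 and 21.0 CPM in colon (log2 fold change -2.80 ± 0.22, edgeR adjusted p = 4.8e-06). The retinol binding protein Rbp2 (-2.65 ± 0.25) and the folate carrier Slc46a1 (-1.68 ± 0.25) were higher in ileum too. S100g, a calcium binding protein of absorptive cells, was at 329.8, 653 and 274 CPM in colon and 11.1, 41.1 and 7.63 CPM in ileum (log2 fold change 4.39 ± 0.73, edgeR adjusted p = 9.6e-04), and the vitamin D receptor Vdr was at 492, 436 and 386 CPM in colon and 288, 269 and 249 CPM in ileum (log2 fold change 0.71 ± 0.15, edgeR adjusted p = 0.0045).

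Genes of salt, bicarbonate and water transport leaned towards colon. Of 28 tested genes 13 were higher in colon, 7 were higher in ileum and 8 did not pass, with a median of 0.97. The shares over all tested genes were 17.1% for colon and 20% for ileum. Slc9a3, the apical sodium-proton exchanger, was at 328, 411 and 538 CPM in colon and 6.38, 21.7 and 20.4 CPM in ileum (log2 fold change 4.71 ± 0.51, edgeR adjusted p = 4.2e-05). Slc26a3, its chloride-bicarbonate partner, was at 374, 459.7 and 535 CPM in colon and 151, 266 and 162 CPM in ileum (log2 fold change 1.24 ± 0.27, edgeR adjusted p = 0.0059). Subunits of the epithelial sodium channel, a target of aldosterone, were higher in colon, Scnn1a at 40.3, 24.8 and 32.0 CPM in colon and 17, 11.7 and 12 CPM in ileum (log2 fold change 1.26 ± 0.29, edgeR adjusted p = 0.0072) and Scnn1b at 4.85, 4.92 and 4.07 CPM in colon and 0, 0.195 and 0 CPM in ileum (log2 fold change 5.83 ± 0.74, edgeR adjusted p = 1.5e-04). For Scnn1b the only ileal reads were in replicate 2. Without that library ileum held 0 counts, so the fitted value of 9.53 then depends on the prior count.

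Car2, a cytosolic carbonic anhydrase, was at 622, 552 and 565 CPM in colon and 1.43, 50.8 and 7.25 CPM in ileum (log2 fold change 4.86 ± 0.99, edgeR adjusted p = 0.0036), again with its highest ileal value in replicate 2, and was at 7.04 without it. Atp12a, a proton-potassium pump, was at 1.79, 1.97 and 1.33 CPM in colon and 0, 0 and 0.0474 CPM in ileum, with 1 count in all of ileum (edgeR adjusted p = 6.1e-04). Best2, a chloride and bicarbonate channel of goblet cells, was at 4.10, 3.94 and 4.52 CPM in colon and 0.0596, 0.117 and 0.189 CPM in ileum (log2 fold change 5.0 ± 0.92, edgeR adjusted p = 0.0019). All of these were separated between the tissues. Aqp4, a basolateral water channel, was at 36.6, 45.2 and 160.4 CPM in colon and 17.5, 11.5 and 11.5 CPM in ileum (log2 fold change 2.59 ± 0.59, edgeR adjusted p = 0.0067), and colon KO replicate 3 set the size of that change, since it fell to 1.6 without it.

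Other members of this group ran towards ileum. Slc26a6, an exchanger of chloride, bicarbonate and oxalate, was at 289, 278 and 287 CPM in ileum and 2.21, 1.24 and 2.82 CPM in colon (log2 fold change -7.07 ± 0.27, edgeR adjusted p = 4.0e-08). The glycerol channels Aqp7 (-6.63 ± 0.54) and Aqp3 (-3.22 ± 0.46) and the bicarbonate carrier Slc4a4 (-0.81 ± 0.16) were higher in ileum. The 2 peptide hormones that act on guanylate cyclase C were opposite, Guca2b being higher in ileum at 605, 216 and 173 CPM in ileum and 19.1, 13.7 and 14.8 CPM in colon (log2 fold change -4.38 ± 0.54, edgeR adjusted p = 1.2e-04) and Guca2a higher in colon at 1788, 1307 and 1335 CPM in colon and 792, 756 and 579.9 CPM in ileum (log2 fold change 1.06 ± 0.20, edgeR adjusted p = 0.0025). Their receptor Gucy2c was at 299.9, 202 and 229 CPM in ileum and 309.6, 259 and 251 CPM in colon, with overlapping ranges (log2 fold change 0.16 ± 0.23, edgeR adjusted p = 0.62).

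In butyrate use and ketone formation 10 of 13 genes were higher in colon and 1 in ileum (median 0.71). Pparg, a nuclear receptor that responds to fatty acids, was at 161, 228 and 161 CPM in colon and 8.23, 33.1 and 15.8 CPM in ileum (log2 fold change 3.26 ± 0.41, edgeR adjusted p = 1.3e-04). The butyrate dehydrogenase Acads was at 204, 211 and 211 CPM in colon and 86.3, 79.6 and 99.7 CPM in ileum (log2 fold change 1.24 ± 0.12, edgeR adjusted p = 2.2e-05). Both were higher in every colon library. The monocarboxylate carrier Slc16a1 (1.17 ± 0.20) and the carnitine transferase Cpt1a (1.32 ± 0.23) were also higher in colon. Slc5a8, a sodium-coupled carrier of short-chain fatty acids, was the exception, at 266, 459 and 456 CPM in ileum and 185, 171 and 189.6 CPM in colon (log2 fold change -1.12 ± 0.34, edgeR adjusted p = 0.029).

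Enzymes of drug and steroid metabolism followed no single direction, with 11 of 26 tested genes higher in colon and 5 higher in ileum (median 0.31). The shares over all tested genes were 17.1% and 20%, so the ileal count lay near the background. Cyp2c55, a cytochrome P450 that oxidises fatty acids, was at 4895, 7583 and 6559 CPM in colon and 298, 545 and 80.2 CPM in ileum (log2 fold change 4.37 ± 0.92, edgeR adjusted p = 0.0043), and Cyp2c65 was at 671, 773 and 584 CPM in colon and 100.2, 169 and 87.0 CPM in ileum (log2 fold change 2.51 ± 0.39, edgeR adjusted p = 6.1e-04). Sult1a1, a phenol sulphotransferase, was at 325, 396 and 349.6 CPM in colon and 3.70, 34.5 and 2.84 CPM in ileum (log2 fold change 4.69 ± 0.79, edgeR adjusted p = 0.0011) and at 6.77 without ileum KO replicate 2. Cyp2d34 (5.44 ± 1.04), the glucuronidating enzyme Ugt1a1 (2.17 ± 0.28) and the esterase Ces2c (1.15 ± 0.13) were higher in colon. Ileum had more of the xenobiotic enzyme Cyp3a11, at 81.3, 25.8 and 31.0 CPM in ileum and 0.801, 0.932 and 1.33 CPM in colon (log2 fold change -5.48 ± 0.76, edgeR adjusted p = 2.7e-04). Cyp4f14 (-1.85 ± 0.15), the esterase Ces2e (-1.24 ± 0.15) and the efflux pump Abcg2 (-1.99 ± 0.45) were higher in ileum. Several of these genes have close paralogues, so the values of single members are uncertain.

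Paneth cell genes had the lowest median of the 33 lists with at least 5 tested members. Of 16 genes 15 were higher in ileum, none in colon, and the median log2 fold change was -11.99, or -11.98 with Defa26, which had 0 counts in colon, set at its bound. Most members of the list are Defa genes, near-identical copies that can share reads, so the count and the median rest mainly on that family. Lyz1, the lysozyme of Paneth granules, was at 4742, 2459 and 2307 CPM in ileum and 2.83, 2.54 and 2.20 CPM in colon (log2 fold change -10.29 ± 0.70, edgeR adjusted p = 1.4e-06). Mmp7, the protease that activates defensins, was at 131, 83.1 and 75.5 CPM in ileum and 1.37, 0.932 and 1.95 CPM in colon (log2 fold change -6.07 ± 0.40, edgeR adjusted p = 1.1e-06). Itln1, a lectin for microbial sugars, was at 1866, 873 and 688 CPM in ileum and 3.67, 0.777 and 3.82 CPM in colon (log2 fold change -8.68 ± 0.82, edgeR adjusted p = 1.7e-05). Defa5 was at 299.5, 292 and 281 CPM in ileum and 0.125, 0 and 0 CPM in colon, with 3 counts in colon. The defining genes of Paneth cells were therefore at or near 0 in the colon of KO mice. Ang4, an antimicrobial ribonuclease that goblet cells also make, was the uncalled member, at 563, 197 and 149.6 CPM in ileum and 230.2, 9.17 and 77.4 CPM in colon (log2 fold change -1.52 ± 1.10, edgeR adjusted p = 0.33).

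Goblet cell and mucus genes, present in both tissues, moved in both directions, with 9 of 18 higher in colon and 6 in ileum. The shares over all tested genes were 17.1% and 20%. Muc2, the gel-forming mucin, was at 4477, 3487 and 3707 CPM in colon and 1612, 1491 and 1309.8 CPM in ileum (log2 fold change 1.40 ± 0.21, edgeR adjusted p = 4.1e-04). Spdef, a factor of goblet cell maturation, was at 69.4, 57.9 and 68.9 CPM in colon and 26.0, 22.2 and 24.8 CPM in ileum (log2 fold change 1.43 ± 0.21, edgeR adjusted p = 4.0e-04). The enzymes Galnt12 (1.13 ± 0.12) and B3gnt6 (1.70 ± 0.23), which build mucin sugars, and Lypd8, which keeps flagellated bacteria off the colonic surface, at 8085, 10696 and 11370.0 CPM in colon and 2493, 4901 and 5175 CPM in ileum (log2 fold change 1.26 ± 0.37, edgeR adjusted p = 0.025), were higher in colon. Other secreted products of goblet cells were higher in ileum. Tff3, a trefoil peptide, was at 1647, 1760.3 and 1587 CPM in ileum and 577, 534 and 419.9 CPM in colon (log2 fold change -1.71 ± 0.17, edgeR adjusted p = 2.9e-05), and Zg16, a lectin that binds bacterial walls, was at 3950.3, 3608 and 3700.2 CPM in ileum and 1089.8, 1098 and 1405 CPM in colon (log2 fold change -1.65 ± 0.22, edgeR adjusted p = 2.0e-04). The mucus protein Fcgbp (-1.48 ± 0.27), Spink4 (-1.50 ± 0.34) and the mucus protease Clca1 (-0.92 ± 0.25) did the same. Retnlb, a goblet cell peptide induced by microbes and helminths, was at 6.69, 3.06 and 101 CPM in colon, so that replicate 3 alone was high, and it was not called (edgeR adjusted p = 0.14).

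In the crypt, Olfm4, the marker of small intestinal stem cells, was at 523, 181 and 122 CPM in ileum and 0, 0.0518 and 0.125 CPM in colon (log2 fold change -11.99 ± 1.24, edgeR adjusted p = 3.2e-05). Axin2, a target of Wnt signalling, was at 54.3, 36.5 and 37.7 CPM in ileum and 5.42, 5.54 and 6.77 CPM in colon (log2 fold change -2.85 ± 0.28, edgeR adjusted p = 2.2e-05), and Smoc2 was at 32.4, 31.7 and 34.7 CPM in ileum and 8.95, 8.34 and 11.9 CPM in colon (log2 fold change -1.76 ± 0.16, edgeR adjusted p = 1.0e-05). Prom1 was at 454, 526 and 435 CPM in colon and 68.6, 119 and 61.4 CPM in ileum (log2 fold change 2.51 ± 0.24, edgeR adjusted p = 1.7e-05) and Cd44 at 33.8, 41.6 and 43.2 CPM in colon and 20.7, 18.1 and 17.4 CPM in ileum (log2 fold change 1.08 ± 0.24, edgeR adjusted p = 0.006), so the stem cell list did not move as one. Of 12 members 4 were higher in ileum and 2 in colon, against 20% and 17.1% of all tested genes. The median of -0.13 turned to 0.52 without ileum KO replicate 1 and was also above 0 in limma-voom and with upper-quartile or library-size scaling. Lgr5, a receptor of crypt base stem cells, was at 16.3, 6.33 and 4.64 CPM in ileum and 2.64, 2.95 and 3.36 CPM in colon (edgeR adjusted p = 0.075), and its call was lost without ileum KO replicate 1 (-0.88, adjusted p = 0.31) and without any 1 of the colon KO libraries (adjusted p = 0.14 to 0.18).

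Hormones of enteroendocrine cells differed one by one. Chga, a granule protein, was at 232, 166 and 139 CPM in colon and 60.4, 26.8 and 27.4 CPM in ileum (log2 fold change 2.23 ± 0.42, edgeR adjusted p = 0.0023), Tph1, the enzyme of serotonin synthesis, was at 50.1, 42.1 and 32.9 CPM in colon and 11.9, 4.06 and 3.55 CPM in ileum (log2 fold change 2.70 ± 0.60, edgeR adjusted p = 0.0058), and Insl5, a hormone of distal L cells, was at 3.30, 4.61 and 5.06 CPM in colon and 1.13, 1.29 and 1.75 CPM in ileum (log2 fold change 1.63 ± 0.42, edgeR adjusted p = 0.014). These were higher in every colon library. Ghrl, which encodes ghrelin, was at 1.85, 1.49 and 2.51 CPM in ileum and 0.0942, 0.0518 and 0.291 CPM in colon (log2 fold change -3.64 ± 0.57, edgeR adjusted p = 6.1e-04), and the hormone secretin (Sct) was at 56.9, 57.5 and 62.5 CPM in ileum and 33, 32.0 and 24.2 CPM in colon (log2 fold change -0.99 ± 0.17, edgeR adjusted p = 0.001), both higher in ileum. Pyy (-0.28, edgeR adjusted p = 0.37) and Gcg (-0.62, edgeR adjusted p = 0.17), the L cell hormones, did not pass. The list counted 6 members higher in colon and 5 in ileum out of 16, against 17.1% and 20% of all tested genes. Of 11 tested tuft cell genes only the succinate receptor Sucnr1 was called, higher in ileum (-1.82 ± 0.69), against 37.1% of all tested genes. Sucnr1 was not called without ileum KO replicate 1, where 2 other members were called higher in colon, or without colon KO replicate 2 or 3.

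Epithelial defence was mostly ileal. Of 15 tested genes 9 were higher in ileum and 1 in colon, with a median of -2.21, and without colon KO replicate 2 the counts were 4 and 1. Reg3b, a lectin that binds bacteria, was at 6660.1, 27746 and 44215 CPM in ileum and 569, 573 and 1671 CPM in colon (log2 fold change -4.81 ± 1.01, edgeR adjusted p = 0.0044). Reg3g, which kills Gram-positive bacteria, was at 2742, 10700.0 and 21821 CPM in ileum and 98.9, 107 and 391 CPM in colon (log2 fold change -5.88 ± 1.18, edgeR adjusted p = 0.0032). Nos2, the inducible nitric oxide synthase, was at 146, 202 and 300.4 CPM in ileum and 2.5, 1.45 and 12.9 CPM in colon (log2 fold change -5.25 ± 0.96, edgeR adjusted p = 0.0018). Ileum lay above colon in each, with a spread of several fold inside both tissues, and ileum KO replicate 1 was the lowest ileal library and colon KO replicate 3 the highest colonic library for all 3. Tlr5, the receptor for flagellin, was the gene higher in colon, at 11.8, 13.4 and 13.2 CPM in colon and 2.21, 1.17 and 0.711 CPM in ileum (log2 fold change 3.25 ± 0.54, edgeR adjusted p = 0.001). The acute phase gene Saa1 ranged from 18.6 to 901 CPM in ileum and from 43.0 to 122 CPM in colon and was not called (edgeR adjusted p = 0.24).

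The gasdermins, which form pores in membranes, split by family branch. Gsdme was at 315, 276 and 245 CPM in ileum and 35.4, 35.7 and 31.9 CPM in colon (log2 fold change -3.02 ± 0.18, edgeR adjusted p = 5.3e-07), and Gsdmd, the substrate of inflammatory caspases, was at 196, 300.2 and 359.7 CPM in ileum and 129, 130.3 and 121 CPM in colon (log2 fold change -1.17 ± 0.33, edgeR adjusted p = 0.022). Gsdmc2 was at 403, 353 and 313 CPM in colon and 80.4, 188 and 78.7 CPM in ileum (log2 fold change 1.62 ± 0.38, edgeR adjusted p = 0.0081). Gsdmc3 (1.16 ± 0.36) was also higher in colon, but not called without ileum KO replicate 3 or colon KO replicate 1, and Gsdmc4 (0.99, edgeR adjusted p = 0.12) did not pass. The Gsdmc genes are close copies, and reads may be divided among them.

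Butyrophilin-like and MHC class II genes were higher in ileum in 10 of 12 cases, and none was higher in colon (median -2.56). Btnl2 was at 71.6, 70.5 and 90.5 CPM in ileum and 11.2, 13.8 and 18.0 CPM in colon (log2 fold change -2.43 ± 0.25, edgeR adjusted p = 3.4e-05), and Btnl6, of the family that holds gut gamma delta T cells in the epithelium, was at 318, 392 and 431 CPM in ileum and 185, 185 and 161 CPM in colon (log2 fold change -1.10 ± 0.16, edgeR adjusted p = 4.4e-04). Ciita, the master switch of MHC class II, was at 10.7, 21.5 and 40.2 CPM in ileum and 1.41, 1.81 and 7.89 CPM in colon (log2 fold change -2.69 ± 0.67, edgeR adjusted p = 0.011). H2-Aa, a class II chain, was at 82.1, 938 and 1246 CPM in ileum and 26.9, 35.1 and 141 CPM in colon (log2 fold change -3.48 ± 1.05, edgeR adjusted p = 0.028). These butyrophilin-like genes were even between replicates, while 6 class II genes of the list, Cd74 among them, were lowest in ileum KO replicate 1, where they lay below colon KO replicate 3. Without colon KO replicate 2 only 4 of the 12 genes were called, H2-Aa not among them (adjusted p = 0.105), and without ileum KO replicate 3 it was 6.

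Of 12 T cell and intraepithelial lymphocyte genes 9 were higher in ileum and none in colon. The granzyme Gzma was at 38.6, 141 and 209.7 CPM in ileum and 9.05, 18.8 and 20.8 CPM in colon (log2 fold change -3.00 ± 0.82, edgeR adjusted p = 0.018), and Cd8a was at 9.06, 18.9 and 22.3 CPM in ileum and 3.82, 3.68 and 6.89 CPM in colon (log2 fold change -1.80 ± 0.48, edgeR adjusted p = 0.015). The ileal ranges lay above the colonic ones, with replicate 1 nearest to colon. The summed level of the T cell list was 99.7, 290 and 417 CPM in ileum and 33.9, 51.0 and 74.3 CPM in colon, and whether the number of such cells differed was not tested. Of 10 plasma cell genes 7 were higher in ileum, but only 1 was called without colon KO replicate 1 and 1 without colon KO replicate 2. Igha, the heavy chain of IgA, was at 298, 961 and 1848 CPM in ileum and 128, 155 and 426 CPM in colon, with overlap, and its call (edgeR adjusted p = 0.057) was lost without ileum KO replicate 3, colon KO replicate 1 or colon KO replicate 2. The polymeric immunoglobulin receptor Pigr was at 1551, 3388 and 3795 CPM in ileum and 1589.9, 1099 and 1451 CPM in colon (log2 fold change -1.08 ± 0.33, edgeR adjusted p = 0.032), also overlapping, and was not called without ileum KO replicate 3 or colon KO replicate 2. Among macrophage and dendritic cell genes 3 of 10 were called, against 37.1% of all tested genes, including the integrin Itgam at 13.2, 22.4 and 16.7 CPM in ileum and 2.78, 1.76 and 3.23 CPM in colon (log2 fold change -2.74 ± 0.29, edgeR adjusted p = 4.2e-05). For B cells 2 of 8 tested genes were higher in ileum, against 20% of all tested genes, and the median of -2.92 turned to 0.12 without ileum KO replicate 1.

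Metal transporters are the family of the deleted gene. Of 34 tested members 9 were higher in ileum, 5 were higher in colon, and 20 did not pass, with a median of -0.02 that was 0.11 with upper-quartile factors and 0.25 with library size only, where 9 were higher in colon and 8 in ileum. Over all tested genes 20% were higher in ileum and 17.1% in colon, so these shares lay near the background. Among uptake carriers of the Slc39a family, Slc39a4, the dietary zinc importer, was at 518, 353 and 361 CPM in ileum and 255, 224 and 228 CPM in colon (log2 fold change -0.80 ± 0.15, edgeR adjusted p = 0.0025), and Slc39a5, a basolateral zinc carrier, was at 166, 162 and 204 CPM in ileum and 73.7, 67.0 and 62.1 CPM in colon (log2 fold change -1.39 ± 0.15, edgeR adjusted p = 3.6e-05). Slc39a14, the closest relative of Slc39a8 and likewise a manganese carrier, was at 94.1, 73.7 and 74.3 CPM in ileum and 77.9, 62.6 and 44.9 CPM in colon, with overlap (log2 fold change -0.38 ± 0.21, edgeR adjusted p = 0.19), and was called without colon KO replicate 1 (-0.60, adjusted p = 0.086). The zinc carriers Slc39a4 and Slc39a5 were thus higher in ileum, opposite to Slc39a8. Slc39a13 was higher in colon, as Slc39a8 was. It was at 6.27, 6.01 and 8.38 CPM in colon and 2.15, 3.48 and 5.07 CPM in ileum (log2 fold change 0.95 ± 0.31, edgeR adjusted p = 0.041).

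Among exporters, Slc30a10, which moves manganese out of cells, was at 163, 296 and 176 CPM in colon and 33.4, 68.6 and 46.2 CPM in ileum (log2 fold change 2.10 ± 0.31, edgeR adjusted p = 3.9e-04). Slc40a1, ferroportin, the iron exporter, was at 541, 569.9 and 385 CPM in colon and 48.4, 124 and 106 CPM in ileum (log2 fold change 2.42 ± 0.44, edgeR adjusted p = 0.0019). Slc30a2, a vesicular zinc carrier of Paneth cells among others, was at 57.1, 35.8 and 46.1 CPM in ileum and 0.236, 0.466 and 0.374 CPM in colon (log2 fold change -7.00 ± 0.31, edgeR adjusted p = 1.4e-07). All 3 were separated between the tissues. Heph, which oxidises exported iron (-1.32 ± 0.15), the copper importer Slc31a1 (-1.31 ± 0.14), the copper pump Atp7a (-1.63 ± 0.23) and the zinc carrier Slc30a5 (-1.08 ± 0.11) were higher in ileum. Slc11a2, the importer of ferrous iron, was at 48.4, 45.3 and 52.3 CPM in ileum and 126, 80.1 and 37.0 CPM in colon and uncalled (log2 fold change 0.74 ± 0.45, edgeR adjusted p = 0.25), and passed without colon KO replicate 3 (1.09, adjusted p = 0.087).

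Acer1, an alkaline ceramidase, was at 101, 95 and 75.5 CPM in colon and 20.3, 39.2 and 32.8 CPM in ileum (log2 fold change 1.56 ± 0.24, edgeR adjusted p = 6.2e-04). The gene lies on chr17:56953490-56982126 (minus strand, GRCm38). Ceramidases cut ceramide, a building block of sphingolipids, into sphingosine and a fatty acid. Every colon library was above every ileal one, 2.94-fold by the fit. The log2 fold change in control mice was 1.99, and the difference between the genotypes was -0.43 (approximate 95% interval -1.09 to 0.24). Entpd4b, which shares reads with its near-identical copy Entpd4 and is therefore uncertain, was at 16.3, 17.8 and 21.2 CPM in colon and 14.3, 13.9 and 16.5 CPM in ileum, with overlap (log2 fold change 0.30 ± 0.20, edgeR adjusted p = 0.27).

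Of 24 tested sphingolipid genes, Acer1 among them, 10 were higher in ileum, 4 were higher in colon and 10 did not pass. Over all tested genes 20% were higher in ileum and 17.1% in colon. The median of the list was -0.20 and turned to 0.07 with library size as the only scaling. Enpp7, the alkaline sphingomyelinase of bile and brush border, was at 28, 5.67 and 13.5 CPM in ileum and 0, 0 and 0 CPM in colon, at least 299-fold higher in ileum. Asah2, the neutral ceramidase of the brush border, was at 83.3, 54.2 and 121 CPM in ileum and 10.9, 9.84 and 8.51 CPM in colon (log2 fold change -3.14 ± 0.41, edgeR adjusted p = 1.7e-04). Both digest dietary sphingolipids. The sphingosine phosphate lyase Sgpl1 (-1.19 ± 0.12) and the ceramide synthase Cers2 (-1.05 ± 0.11) were higher in ileum, and Cers4 (1.46 ± 0.16) and the ceramidase Acer3 (0.88 ± 0.17) were higher in colon.

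Tight junction genes differed by small amounts, with 8 of 15 higher in ileum and 2 in colon (median -0.48). The shares over all tested genes were 20% and 17.1%, so the colonic count lay near the background. Cldn2, which forms a pore for cations and water, was at 272, 228 and 219 CPM in ileum and 74.7, 97.9 and 104 CPM in colon (log2 fold change -1.38 ± 0.33, edgeR adjusted p = 0.0097), and Cldn15, a sodium pore of the small intestine, was at 303, 171 and 222 CPM in ileum and 96.7, 76.3 and 100.1 CPM in colon (log2 fold change -1.35 ± 0.24, edgeR adjusted p = 0.0014). Cldn4, a sealing claudin, was at 207, 170.1 and 229.8 CPM in ileum and 36.6, 94.1 and 82.8 CPM in colon (log2 fold change -1.51 ± 0.35, edgeR adjusted p = 0.0082). Ileum was the higher in all 3 without overlap. Cldn7 (-1.17 ± 0.17) and occludin (Ocln, -0.66 ± 0.19) followed, and Cldn5, a claudin of endothelium, was low and higher in colon (1.79 ± 0.42).

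Cholesterol synthesis was nearly uniform. Of 18 genes 17 were higher in ileum and none in colon, with a median of -1.37. Hmgcs1, which makes the precursor of mevalonate, was at 513, 711 and 774 CPM in ileum and 114, 151 and 196 CPM in colon (log2 fold change -2.12 ± 0.26, edgeR adjusted p = 1.2e-04), and Sqle, a late oxidising enzyme, was at 229.9, 257 and 326 CPM in ileum and 51.0, 56.0 and 86.1 CPM in colon (log2 fold change -2.07 ± 0.22, edgeR adjusted p = 3.4e-05). Both were without overlap, and the count of 17 did not change when any single library was left out.

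Cell cycle and DNA replication genes were higher in ileum in 16 of 20 cases and in none higher in colon (median -1.19), with 10 called without colon KO replicate 1. Mcm5, part of the replicative helicase, was at 41.7, 19.1 and 19.7 CPM in ileum and 6.5, 5.49 and 8.47 CPM in colon (log2 fold change -1.97 ± 0.48, edgeR adjusted p = 0.01), Ccna2, cyclin A2, was at 65.7, 60.4 and 48.4 CPM in ileum and 24.3, 24.2 and 28.3 CPM in colon (log2 fold change -1.18 ± 0.18, edgeR adjusted p = 5.5e-04), and Top2a, a topoisomerase of dividing cells, was at 152, 101 and 71.5 CPM in ileum and 37.1, 33 and 44.1 CPM in colon (log2 fold change -1.50 ± 0.38, edgeR adjusted p = 0.013). Ileum KO replicate 1 was the highest library in each. Pcna, a clamp of DNA polymerase, was at 117, 105 and 88.3 CPM in ileum and 76.0, 84.3 and 78.5 CPM in colon and did not pass (log2 fold change -0.38 ± 0.18, edgeR adjusted p = 0.15).

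Markers of the epithelium itself were higher in ileum in 8 of 10 cases, none being higher in colon. The summed level of the 10 genes was 23683 to 29172 CPM in ileum and 12992 to 14231 CPM in colon. Vil1, whose promoter drives Cre in these mice, was at 2900.2, 2905 and 3424 CPM in ileum and 662, 673 and 743 CPM in colon (log2 fold change -2.15 ± 0.17, edgeR adjusted p = 4.6e-06). Epcam, a surface marker of all gut epithelium, was at 2982, 3441 and 3310.1 CPM in ileum and 1648, 1565 and 1461 CPM in colon (log2 fold change -1.06 ± 0.16, edgeR adjusted p = 5.9e-04). The share of epithelial transcripts in the mucosa therefore differed between the tissues along with the gene groups above, and its part in them was not tested. Transcripts of enteric neurons, glia and pacemaker cells were higher in colon in 7 of 11 genes, with sums of 93.5 to 104.9 CPM in colon and 28.4 to 37.8 CPM in ileum, and leaving out any KO library other than ileum KO replicate 3 left 3 or 4 called. Kit, the receptor of pacemaker cells, was at 38.8, 36.3 and 36.3 CPM in colon and 20.1, 12.9 and 11.4 CPM in ileum (log2 fold change 1.33 ± 0.27, edgeR adjusted p = 0.0035). In stroma and endothelium 1 of 13 genes was called, against 37.1% of all tested genes. This was Pecam1 (1.02 ± 0.37), which was not called without ileum KO replicate 2 or 3 or any 1 colon KO library. None of 6 adipocyte genes was called, against the same 37.1%. Of 8 pancreatic acinar genes only Cela1 could be tested (28.6, 26.9 and 31.9 CPM in colon and 4.59, 7.97 and 6.25 CPM in ileum), and the digestive enzymes that define those cells were too low to test.

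**Figure D4:**
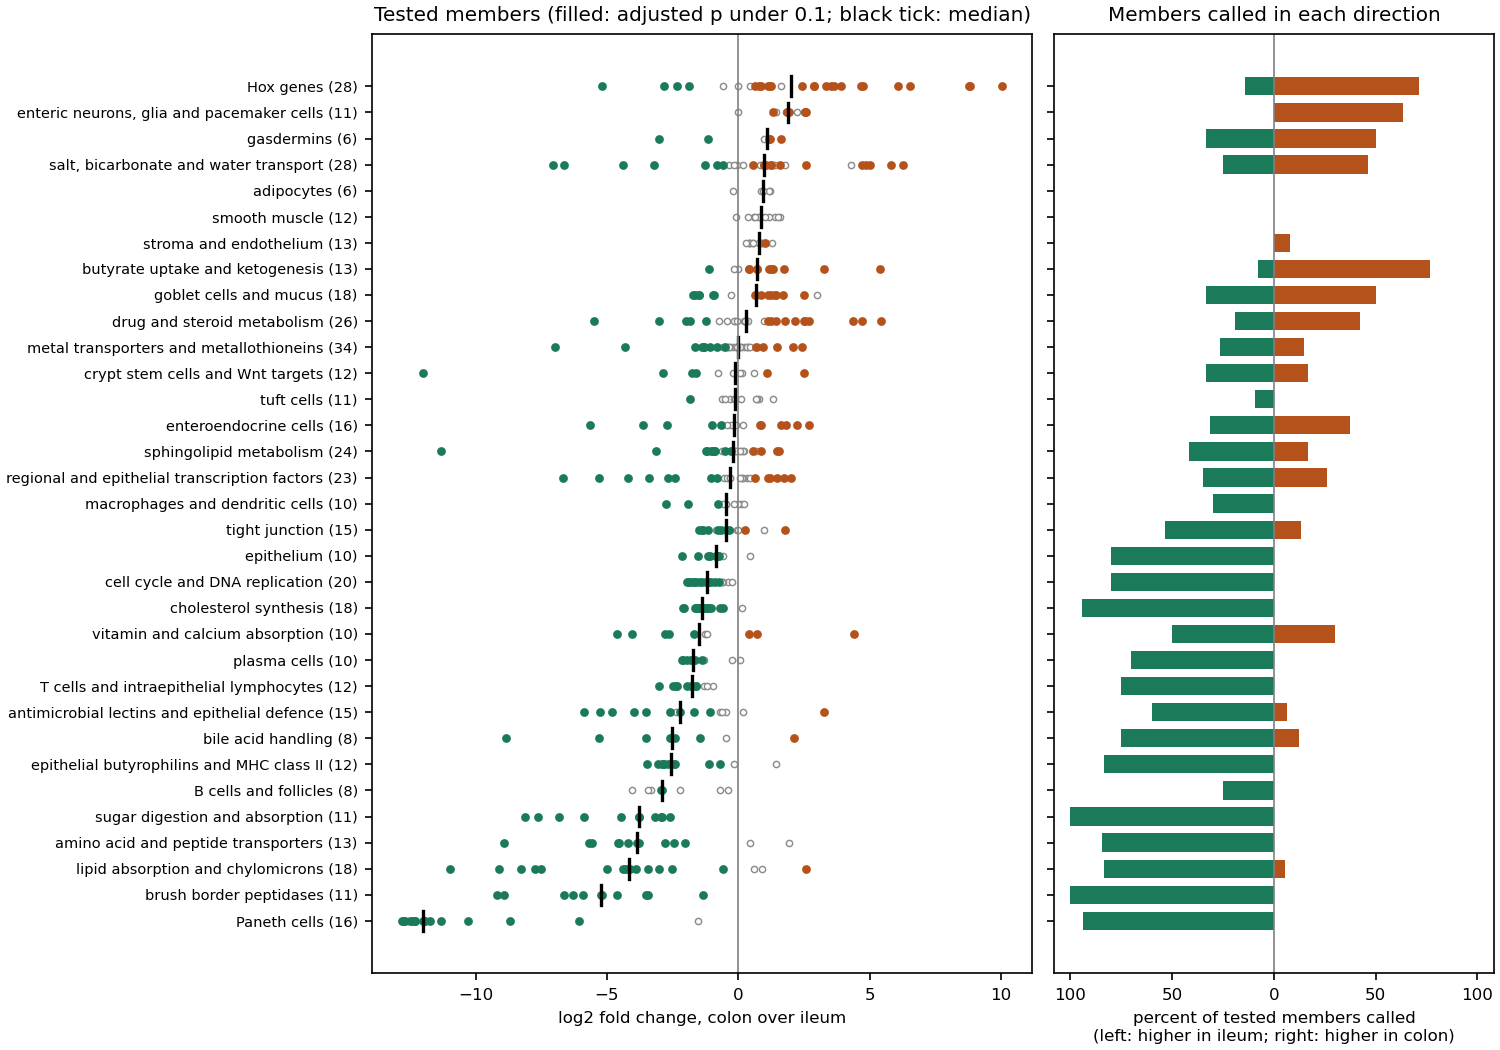
Log2 fold change, colon over ileum in Slc39a8-IEC KO mice, of every tested member of 33 gene lists, with filled points for an adjusted p under 0.1 and a black tick at the median (left), and the percent of tested members called in each direction (right). Lists run from the highest median (Hox genes, 2.01) to the lowest (Paneth cells, -11.99), the number of tested members is in parentheses, a pancreatic acinar list with 1 tested gene is not drawn, and over all tested genes 17.1% were called higher in colon and 20% higher in ileum.

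To see which regional differences belong to the KO mice, the same comparison was set beside that in control mice, which shares no library with it. In control mice 5940 genes (35.9%) were called, 2689 (16.2%) higher in colon and 3251 (19.6%) higher in ileum. Called in both were 4860 genes, 79.0% of the KO calls and 81.8% of the control calls, and 4859 of them had the same direction. The exception was Gm15850, named after its values were seen, a gene of at most 0.829 CPM in any library. Over all genes the log2 fold changes of the genotypes had a Pearson correlation of 0.921 and a Spearman correlation of 0.894, as a description across genes, which are not independent replicates.

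The test of the difference itself, KO minus control, called 0 genes in edgeR (smallest adjusted p = 0.99998), with 169 genes (1.02%) at an unadjusted p under 0.05. If no gene differed, a share of about 0.05 would fall there, so the test was cautious in these data. Its 0 calls therefore do not show that the regional pattern was the same in both genotypes. Leaving out ileum KO replicate 1 and ileum control replicate 3 together gave 415 of 16896 genes at an unadjusted p under 0.05, with 0 called. The test of the difference called 0 genes in limma-voom and 1, Aqp8, in DESeq2. In the edgeR fit Aqp8 had a log2 fold change of 1.76 in KO and 14.08 in control mice, where it was at 0 in all 3 ileal libraries, so that the control value depends on the prior count. Without ileum KO replicate 2 the KO value was 8.85. Of the regional genes above, Fabp6 was at -8.85 in KO and -9.46 in control mice, Lyz1 at -10.29 and -9.95, and Slc9a3 at 4.71 and 4.45. The approximate 95% interval of the difference was -0.70 to 1.93 for Fabp6, -1.71 to 1.02 for Lyz1 and -0.95 to 1.47 for Slc9a3. Among the bile acid genes Fgf15 had the widest difference of fitted values, but it rested on 8 counts in the 3 KO colon libraries together and 0 in the 3 control ones, and it did not pass the test.

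**Figure D5:**
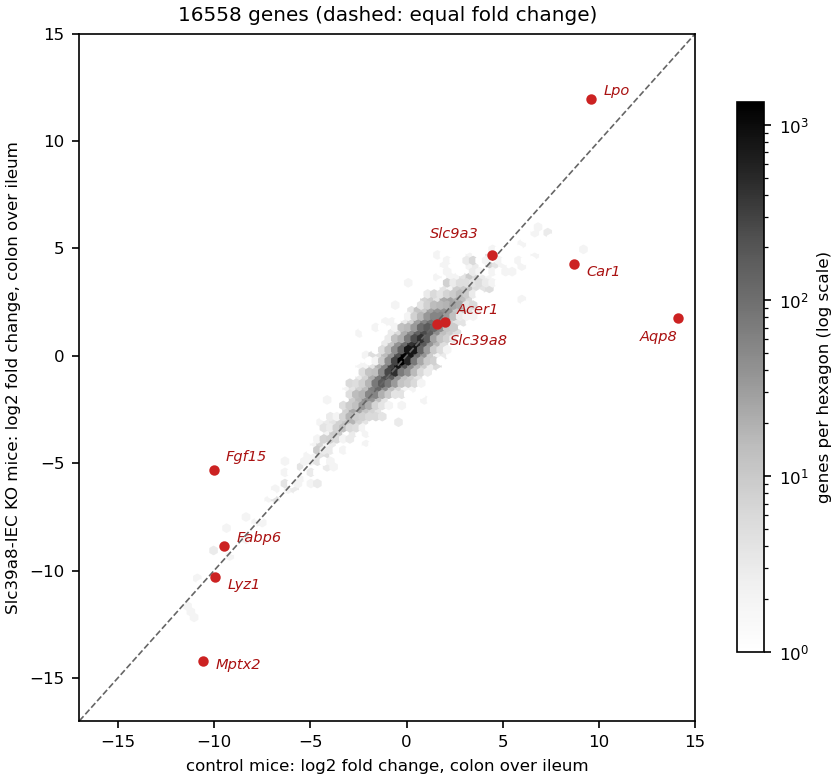
Log2 fold change, colon over ileum, of 16558 genes in Slc39a8-IEC KO mice (vertical axis) against control mice (horizontal axis), drawn as hexagons shaded by the number of genes on a log scale, with 10 named genes labelled. The dashed line marks equal fold changes, most genes lie along it, and Aqp8 (1.76 in KO, 14.08 in control) and Car1 lie below it on the colon side.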

How the data were processed

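RNA was extracted from whole ileal and colonic mucosa, selected with oligo-dT and sequenced as 150-bp paired ends. The deposited table holds expected counts per gene for 53715 genes. The submitters' processing notes name STAR and the build mm10, and the study's reporting summary adds the removal of duplicates by UMI and counting of uniquely mapped reads by FeatureCounts. That program gives whole counts by default, so what gave the values that are not whole is unclear. The 92 spike-in rows held 0 counts and were left out, and 93.7% of values were whole numbers. The other values were rounded. Library totals were 16749138 to 27903083, so counting error is small except for genes of a few counts, and it is the only error that count floors cover.

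Libraries were grouped by the genotype and tissue of their labels. Counts were scaled by TMM, filtered with filterByExpr and fitted with edgeR 4.0.16 (quasi-likelihood test, 4 group means over all 12 libraries, R 4.3.3), with Benjamini-Hochberg adjustment over 16558 genes and a threshold of 0.1. The contrasts were colon against ileum in KO mice, in control mice, and their difference. All groups thus shared 1 estimate of the spread. The p-values measure the spread between these samples, which may in part be technical. Alternatives were DESeq2 1.42.0, limma-voom (limma 3.58.1), other scalings and filters, a replicate block and each library left out. The code was tested on simulated data in which few genes differed. There 11.7% of edgeR calls, 31.6% of DESeq2 calls and 10.9% of limma-voom calls were false at this threshold. Promoters and motif matches were taken from RefSeq sequences with Python 3.11.15.

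Named genes were Slc39a8, Acer1, Entpd4b, the 8 largest fitted changes in each direction among called genes with a mean of at least 10 CPM in the higher tissue, and members of 34 gene lists: those of smallest p, those that define the list, and those that go against it or miss the threshold. Some members are counted in their lists but not reported here. The members and lists were chosen with earlier results of these data known. A fold against 0 counts was computed against a floor of 3 counts over the group.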

Additional observations from a re-analysis of the deposited data

How the results depend on the processing

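The count of 6149 genes called between colon and ileum in KO mice was 6421 in DESeq2, 6286 in limma-voom, 6124 with RLE factors, 5545 without a filter, 5928 with a filter of 1 CPM, 6150 without rounding, 6552 with only the KO libraries in the fit and 4748 at an adjusted p under 0.05. No gene called in both fits changed direction under any of these settings. Leaving out 1 library at a time gave 4429 (without colon KO replicate 2) to 7166 (without ileum control replicate 3) calls. Without ileum KO replicates 1 and 2 together, which leaves 1 ileal KO library that is assumed to vary like the other groups, the count was 3394. Without the 2 ileal libraries with few muscle transcripts, an alternative chosen after seeing the data, it was 7298. Requiring a 2-fold change left 3389 genes in KO and 3263 in control mice by construction. For the difference between the genotypes DESeq2 called 1 gene and edgeR 0. Of the genes restricted to 1 tissue in control mice, 90.9% (10 of 11) were called in the same direction in KO mice, 97.1% and 85.7% under looser and stricter cuts, and 97.2% (70 of 72) under the 50-fold rule.

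Replicate numbers were not used to pair the ileal and colonic KO libraries. Deviations of same-numbered libraries from their group means correlated at 0.19, 0.05 and 0.25, and those of the other pairs at -0.21 to 0.05. Ileum replicate 2 correlated about as well with colon replicate 3 (0.054) as with colon replicate 2 (0.051). With 3 libraries per group these values cannot decide whether the tissues came from the same mice. With the replicate block the counts were 5558 in KO and 5333 in control mice, and 6674 in a block of only the 6 KO libraries. For the 230 named genes, 5858 of 6123 values under all alternatives kept direction and side of the threshold, 167 fell short of it, 97 newly passed it and 1 turned, Hadh, at 0.12 with library size as the only scaling and -0.15 with TMM. The causes of these changes were not tested. Genes of 1 to 3 counts in the lower tissue have no interpretable fold at this depth.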
